A study of Mus musculus with 6 samples.

Results

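The Hox genes of the mouse were read in dendritic and follicular dendritic cells. They were taken as every gene whose symbol in the platform annotation is Hox followed by a cluster letter (a to d) and a number, each by the probe set whose mean signal over the 6 arrays was highest. This gave 33 genes of 18193 named genes: 9 in the A cluster, 9 in the B cluster, 7 in the C cluster and 8 in the D cluster. Other Hox genes were not analysed here.

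Total RNA from mouse cells was measured on 1 array per sample. BMDC are dendritic cells grown from bone marrow (2 arrays), and FDC are follicular dendritic cells kept in culture (2 arrays). FL-Y is an FDC-like cell line transformed with SV40 (1 array), and activated FL-Y is the same line after activation through the lymphotoxin beta receptor by an antibody (1 array). FL-Y is 1 line, and strain, age and sex are not given in the labels of any group. No label says whether arrays of a group came from separate cultures or animals, so a p-value reflects only how these arrays spread, and that spread may be technical.

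Hox genes encode homeodomain transcription factors that give cells their position along the body axis and the limbs. They lie in clusters, and genes of low paralog number act toward the head while those of high number act toward the tail and the limb tips. Adult fibroblasts keep a Hox pattern that reflects where in the body they came from. In blood formation, Hoxa9 and its A-cluster neighbours act in stem and progenitor cells and decline as myeloid cells mature.

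All 6 arrays had the same trimmed mean of 500.0 signal units, and their medians ran from 47.8 to 84.1. Across tested probe sets the log2 values correlated at 0.925 between the BMDC arrays and at 0.899 between the FDC arrays, a description across probe sets. The ratio of labelling to hybridisation control signals was 0.0618 and 0.0666 on the first BMDC and FDC arrays, 0.284 and 0.182 on the second, and 0.0323 and 0.0393 on the arrays of FL-Y and activated FL-Y. Of 9 fibroblast and mesenchymal markers, 8 were called higher in FDC than in BMDC, and their summed signal was 593 and 855 in BMDC against 225000 and 144900 in FDC. On the FL-Y and activated FL-Y arrays that sum was 133600 and 103200. Of 8 FDC markers, 3 were called lower in FDC and the other 5 were not called. The 3 were Fcgr2b (32488.0 and 23876.6 in BMDC against 199.4 and 198.0 in FDC), Mfge8 (27357.5 and 25081.7 against 5146.4 and 6483.8) and Clu (5854.2 and 6164.2 against 148.3 and 16.6). Cr2, the complement receptor that defines mature FDC, read 59.1 and 71.1 in BMDC and 119.5 and 4.1 on the FDC arrays. Cxcl13, the chemokine by which FDC draw B cells, read 1288.2 and 64.5 there against 50.9 and 36.4 in BMDC. Tnfsf13b, a B cell survival factor, read 4004.1 and 1265.1 against 137.4 and 547.1, and neither was called (limma adjusted p = 0.331 and 0.107). None of the 8 FDC markers was thus called higher in FDC, and the label is used here as a name.

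Signals were compared as log2(signal + 14.2), so every difference and fold below is on that scale and understates the change of dim genes. In this bulk RNA, fewer cells of a type and less RNA per cell cannot be told apart. 6 Hox genes were higher in FDC than in BMDC: Hoxc4, Hoxc6, Hoxc8, Hoxc9 and Hoxc10 of the C cluster and Hoxa11 of the A cluster. No B or D cluster gene was called. Both FDC arrays lay above both BMDC arrays for 15 of the 33 genes (45.5%), against 25.7% of all named genes. The opposite order was seen for 2 genes, Hoxb4 and Hoxd11, against 26.5% of all named genes. Over the 33 genes the median difference between FDC and BMDC was 0.39, and over all named genes it was -0.01. Only 15 of the 33 genes passed the filter on dim probe sets, and 18 were not tested. The 6 calls were made by limma, with p-values adjusted by Benjamini and Hochberg's method across 27022 probe sets and a threshold of 0.05, and 5.99% of all tested genes were called higher. None was called lower, against 5.45% of all tested genes. At an unadjusted p under 0.05 in limma, 11 Hox genes were higher and 0 lower, against 13.8% and 13.6% of all tested genes. A gene that passes the filter through its FDC signal alone had to differ, so the share called among the tested genes is not read as support. Within the first arrays the differences of the 6 genes ran from 2.04 to 4.86, and within the second from 2.44 to 4.74.

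**Figure D1:**
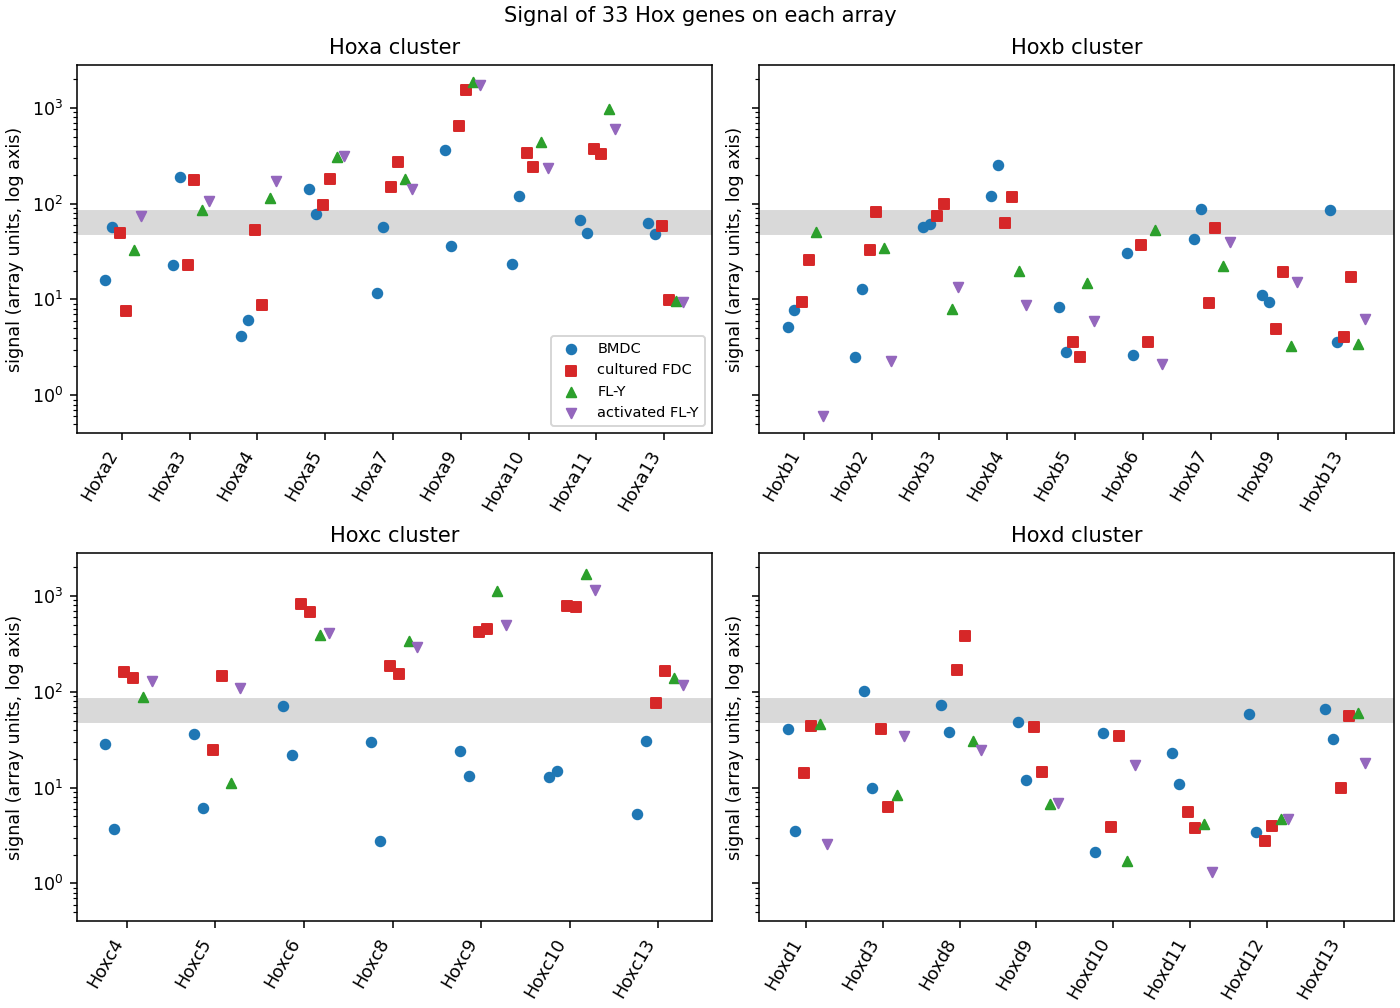
Signal of each of the 33 Hox genes on each of the 6 arrays, by cluster and paralog number. The shaded band spans the array medians (47.8 to 84.1). Hoxc10 and Hoxc9 lie far higher in FDC and FL-Y than in BMDC, and Hoxd8 is the D cluster gene above the band on both FDC arrays.

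By cluster, the count of genes with both FDC arrays above both BMDC arrays was 5 of 9 in A, 3 of 9 in B, 6 of 7 in C and 1 of 8 in D. The median differences were 1.02, 0.05, 2.74 and -0.28 in the same order. Genes above the array's own median on both FDC arrays numbered 5 in A, 0 in B, 5 in C and 1 in D, where 55.7% of all named genes did so. On both BMDC arrays only Hoxb4, a gene of blood stem cells, lay above the median, where 55.2% of all named genes did so. By paralog number, 2 of 7 genes of numbers 1 to 3 were tested by limma and 0 called (0 also at an unadjusted p under 0.05). Of 12 genes of numbers 4 to 8, 7 were tested and 3 called, and of 14 genes of numbers 9 to 13, 6 were tested and 3 called. Genes not tested could not be called, so these counts set no order among the paralog groups. No test compares the clusters.

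The promoter windows below are the 250 bases before the RefSeq start (GRCm38.p6), shown because Hoxa11 and Hoxc4 were called higher in FDC and the brightest Hoxd8 probe set was lower in FL-Y than on both FDC arrays. Capitals mark CG dinucleotides, which are dense in many developmental gene promoters. The Hoxa11 window lies at chr6:52245811-52246060 on the minus strand. The Hoxc4 window lies at chr15:103034145-103034394 on the plus strand, and its tabled start falls inside the gene model. The Hoxd8 window lies at chr2:74704365-74704614 on the plus strand.
Hoxa11: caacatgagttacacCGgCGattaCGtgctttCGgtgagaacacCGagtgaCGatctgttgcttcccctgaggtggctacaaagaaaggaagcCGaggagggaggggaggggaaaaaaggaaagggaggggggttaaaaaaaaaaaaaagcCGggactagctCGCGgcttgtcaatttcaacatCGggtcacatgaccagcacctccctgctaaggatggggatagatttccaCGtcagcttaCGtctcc
Hoxc4: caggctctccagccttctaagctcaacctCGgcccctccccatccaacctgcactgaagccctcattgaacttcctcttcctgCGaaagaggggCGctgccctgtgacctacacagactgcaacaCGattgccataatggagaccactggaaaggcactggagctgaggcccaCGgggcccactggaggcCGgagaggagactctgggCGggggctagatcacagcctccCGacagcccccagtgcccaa
Hoxd8: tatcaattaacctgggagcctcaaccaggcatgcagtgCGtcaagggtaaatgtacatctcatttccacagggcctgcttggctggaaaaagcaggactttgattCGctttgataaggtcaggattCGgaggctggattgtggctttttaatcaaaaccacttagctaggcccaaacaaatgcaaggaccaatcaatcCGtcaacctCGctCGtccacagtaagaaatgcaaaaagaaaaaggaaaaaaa
The windows held 13, 8 and 6 CG dinucleotides. Promoters were found for 19 of the 33 genes (21 windows), with a median of 13 CG dinucleotides against 6 in all 32851 windows. The letters CCAAT, on either strand, occurred in 11 of the 21 Hox windows and in 33.8% of all windows. TATAAA occurred in 2 of 21 and in 12.4% of all, and TGATNNAT, searched as a pattern bound by Hox and Pbx proteins, in 3 of 21 and in 7.7% of all. A match describes letters in the window and not a bound site.

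Hoxc10, a posterior gene of the hindlimb and lower trunk, read 13 and 14.8 in BMDC, 776.9 and 762.4 in FDC, 1680.1 in FL-Y and 1161.9 in activated FL-Y. The FDC and FL-Y arrays were high, and both BMDC arrays were under the 20th percentile of their own arrays, so the size of the difference depends on the offset. The difference was 4.80 ± 0.37 (SE, 2 arrays a group, a fold of 27.9; limma adjusted p = 0.00354).

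Hoxc9, a gene of the trunk, read 24 and 13.1 in BMDC, 417.8 and 450.0 in FDC, 1129.1 in FL-Y and 502.4 in activated FL-Y. The groups did not overlap, with a difference of 3.79 ± 0.39 (limma adjusted p = 0.00696). BMDC array 2 lay under its own 20th percentile, so the size moves with the offset, from 2.78 with the larger offset (40th percentile) to 4.61 with a floor in its place. Hoxc6, a gene of the forelimb and thoracic region, read 70.2 and 22 in BMDC, 828.9 and 682.6 in FDC, 395.6 in FL-Y and 406.2 in activated FL-Y. Its difference was 3.79 ± 0.53 (limma adjusted p = 0.0154), and FL-Y lay between the other groups. A second Hoxc6 probe set was also called (3.26 ± 0.66, limma adjusted p = 0.0434), and the third was dim, with a difference of -0.66.

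Hoxc4, a gene of the neck and upper trunk, read 28.2 and 3.7 in BMDC, 159.9 and 140.9 in FDC, 87.2 in FL-Y and 130 in activated FL-Y (difference 2.58 ± 0.53; limma adjusted p = 0.0456). Hoxc8, a thoracic gene, read 29.9 and 2.8 in BMDC, 185.9 and 152.0 in FDC, 337.2 in FL-Y and 292.8 in activated FL-Y (difference 2.74 ± 0.56; limma adjusted p = 0.0456). Without BMDC array 2 both calls were lost (limma adjusted p = 0.140 for Hoxc4 and 0.129 for Hoxc8), and without either FDC array neither gene passed the filter. Without a filter the limma adjusted p was 0.0946 for Hoxc4 and 0.0934 for Hoxc8, and with a trended, robust spread it was 0.061 and 0.0536.

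In the A cluster, Hoxa11, a gene of the forearm and the uterus, read 67.9 and 49.6 in BMDC, 368.3 and 332.8 in FDC, 978.5 in FL-Y and 608.6 in activated FL-Y. Its difference was 2.33 ± 0.38 (fold 5.03; limma adjusted p = 0.0242). Leaving out any 1 of the 4 arrays lost the call, with limma adjusted p between 0.0599 and 0.111, and it was 0.0642 without a filter. Hoxc6 lost its call without FDC array 1 (limma adjusted p = 0.0504), while Hoxc9 and Hoxc10 kept theirs whichever 1 of the 4 arrays was left out. In these fits 1 array stands against 2, so the lone array is assumed to vary like the other group.

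Other A cluster genes lay higher in FDC without passing the test. Hoxa9, the progenitor gene of the cluster, read 359.2 and 36.2 in BMDC, 641.5 and 1527.0 in FDC, 1867.3 in FL-Y and 1738.0 in activated FL-Y. The BMDC arrays disagreed by 2.89 log2 units, and the difference was 2.87 ± 1.03 (limma adjusted p = 0.173). It was 0.81 for the first arrays and 4.93 for the second. Without BMDC array 1, the higher of the BMDC arrays, Hoxa9 joined the called genes and Hoxa11 left them. That fit holds only 1 BMDC array. A second Hoxa9 probe set was tighter, at 42.3 and 32.6 against 228.9 and 219.0, and was called (2.21 ± 0.37, limma adjusted p = 0.0265). Hoxa7 and Hoxa10 had values of 2.32 ± 0.63 and 2.07 ± 0.69 (limma adjusted p = 0.0922 and 0.149), and their groups did not overlap. Hoxc13 of the C cluster, a hair and nail gene, read 5.3 and 30.6 in BMDC, 76.0 and 166.3 in FDC, 140.1 in FL-Y and 117.7 in activated FL-Y (2.11 ± 0.60; limma adjusted p = 0.105). With the array number as a replicate block, Hoxa7 and Hoxc13 passed (limma adjusted p = 0.0445 and 0.0447), although BMDC array 1 carries no number in its label and was numbered by order.

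Hoxa3, a gene of the pharyngeal arches, has 4 probe sets. The brightest was higher on the second array of both groups, at 22.9 and 188.6 in BMDC and 22.8 and 177.3 in FDC (-0.04 ± 1.10; limma adjusted p = 0.987). The other 3 did not share this: from FDC array 1 to FDC array 2 they differed by -0.07, -0.59 and -2.41.

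Hoxa5, a gene of the lung and neck mesenchyme, showed how far the choice of probe set matters. Its brightest set overlapped between groups (143.4 and 78.5 against 97.7 and 178.8; difference 0.28 ± 0.50, limma adjusted p = 0.788). Its other set did not (14.0 and 11.1 against 151.9 and 232.4) and was called at 2.92 ± 0.41 (limma adjusted p = 0.0154). If a gene counted as called when any of its probe sets was, 8 Hox genes were higher in FDC, Hoxa5 and Hoxa9 being added. By the same rule, 6.57% of the 12786 genes with a tested probe set were higher. This rule was chosen after the values were seen.

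Among the B and D genes, Hoxb4 read 119.8 and 255.8 in BMDC and 62.9 and 118.7 in FDC, with 19.9 in FL-Y and 8.8 in activated FL-Y. By this brightest probe set it was the Hox gene that stood above the median on both BMDC arrays, and its difference of -0.91 ± 0.53 did not pass (limma adjusted p = 0.387). A second Hoxb4 set read 72.8 and 63.4 in BMDC, under the array medians, and 44.9 and 85.4 in FDC. By that set the groups overlapped, with a difference of -0.10 ± 0.43. Hoxd8 read 72.0 and 38.4 in BMDC, 170.7 and 383.5 in FDC, 30.7 in FL-Y and 24.5 in activated FL-Y (difference 2.01 ± 0.54; limma adjusted p = 0.0929). A second Hoxd8 set did not pass the filter and was not tested. It read 10.5 and 4.9 in BMDC and 108.5 and 157.8 in FDC, a difference of 2.74. The other D cluster genes reached at most 55.8 on any FDC array. Hoxb3 was at 75.2 and 100.1 on the FDC arrays and at 8.0 in FL-Y. Its second set, also not tested, read 8.2 and 23.8 in BMDC and 49.8 and 78.6 in FDC, a difference of 1.40. Hoxb6 read 52.8 in FL-Y, Hoxb7 39.6 in activated FL-Y and Hoxd13 60.7 in FL-Y, all under the array median. Hoxd3 read 101.4 and 10 in BMDC and 34.5 in activated FL-Y.

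**Figure D2:**
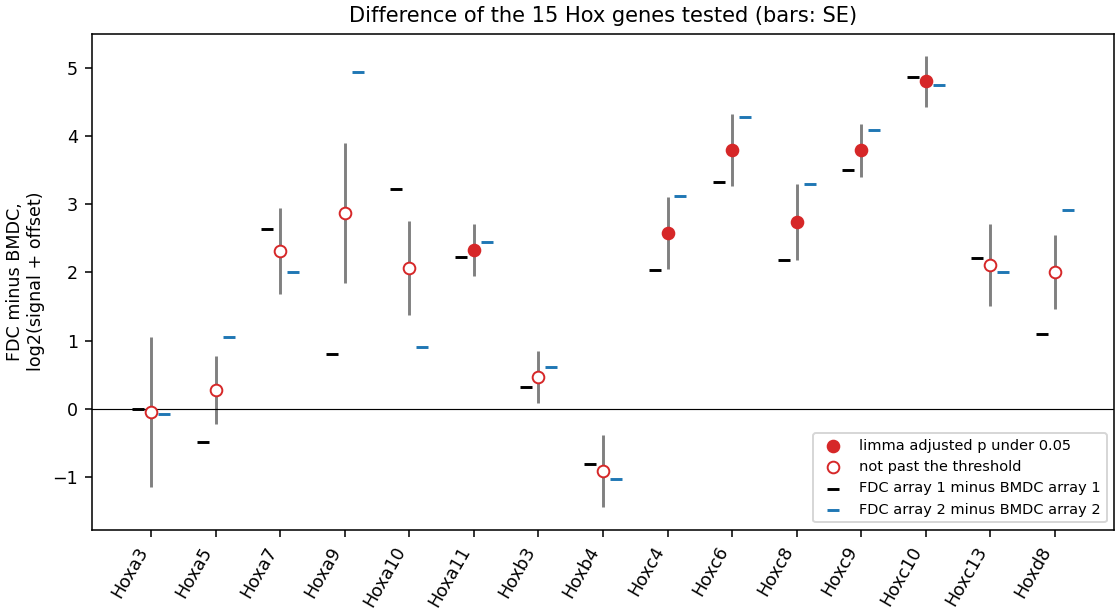
Difference between FDC and BMDC (log2) for the 15 Hox genes tested, with SE bars. Filled points are called by limma, open points are not, and dashes give arrays of the same number. Hoxc10 has the highest value at 4.80, and the tested B and D genes (Hoxb3, Hoxb4 and Hoxd8) are open points.

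Above the array median on both FL-Y arrays were 7 of 9 genes of the A cluster and 6 of 7 of the C cluster, and 0 of the B and D clusters, where 55.4% of all named genes were. Of the A and C genes, 10 lay above the median on all 4 FDC and FL-Y arrays. The share of all named genes that did so on all 4 was not computed. The differences below have no replicate and are a description. Of 17 Hox genes passing the filter, 0 lay at least 2 log2 units above both FDC arrays by the brightest probe set, where 1.95% of all genes did. Another Hoxa3 probe set did lie that far above, at 30.0 and 28.0 in FDC and 198.7 in FL-Y (2.27 and 2.33). The 2 that lay at least 2 below were Hoxd8 (-2.04 and -3.15) and Hoxb3 (-2.01 and -2.36), against 4.84% of all genes. This rested on the brightest probe set of each gene. The second set gave -0.60 and -1.08 for Hoxd8 and -0.60 and -1.14 for Hoxb3. With a larger offset (40th percentile), with quantile normalization or with scaling to a common median, neither gene was 2 below both: against FDC array 1, Hoxd8 was at -1.43, -1.76 and -1.72 and Hoxb3 at -1.08, -1.85 and -1.80. Hoxa11, Hoxc9 and Hoxc10 lay above both FDC arrays by 1.38 and 1.52, 1.40 and 1.30, and 1.10 and 1.13. Hoxc6 lay below both, by -1.04 and -0.77, as did Hoxc4 by -0.78 and -0.61. Over all genes the median difference was -0.13, and 0.20 with scaling to a common median.

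Relative to the FDC mean, FL-Y was highest for Hoxa4 (1.72), Hoxa11 (1.45), Hoxc9 (1.35), Hoxb6 (1.15) and Hoxa5 (1.14). It was lowest for Hoxd8 (-2.59), Hoxb3 (-2.19), Hoxc5 (-1.64), Hoxb4 (-1.57) and Hoxd9 (-0.96). Hoxa4 read 52.9 and 8.7 on the FDC arrays and 115.3 and 174.4 on the FL-Y arrays, so its gap to the second FDC array (2.50) exceeded that to the first (0.95). The other Hoxa4 probe set went the opposite way, at 37.5 and 62.4 in FDC and 1.7 in FL-Y (-1.98 from the FDC mean). The other Hoxa5 probe set differed by 0.28. Hoxc5 read 24.5 and 147.3 on the FDC arrays, which differ by more than FL-Y differs from the first. Another Hoxc5 probe set had closer FDC arrays, at 99.2 and 82.2, with 27.2 in FL-Y (-1.45 and -1.22). The remaining set read 15.2 and 136.6 in FDC and 3.8 in FL-Y (-0.71 and -3.07).

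After activation through the lymphotoxin beta receptor, 0 of the 17 Hox genes passing the filter differed by 2 or more from untreated FL-Y. This was by the brightest probe set, against 0.223% of all genes upward and 0.771% downward. The brightest Hoxd8 set read 30.7 in FL-Y and 24.5 in activated FL-Y, but the second Hoxd8 set read 67.0 and 3.0. Of the 33 genes, 18 were lower and 14 higher after activation, and the median over all genes was -0.09. With arrays scaled to a common median, 12 were lower and 21 higher and the median over all genes was 0.21, so the tally has no settled direction. Hoxc9 went from 1129.1 to 502.4 (-1.15), Hoxa11 from 978.5 to 608.6 (-0.67) and Hoxc10 from 1680.1 to 1161.9 (-0.53). Under scaling to a common median these became -0.81, -0.33 and -0.18. Hoxc8 differed by -0.19 and by 0.14 under scaling to a common median, and Hoxc6 by 0.04 and by -0.01 under quantile normalization. The largest differences were in dim genes: Hoxc5 (2.28), Hoxd3 (1.11), Hoxd10 (0.99), Hoxa2 (0.93) and Hoxb9 (0.75) upward, and Hoxb1 (-2.14), Hoxb6 (-2.04), Hoxd1 (-1.84), Hoxb2 (-1.56) and Hoxd13 (-1.21) downward. None of these 10 exceeded 108.9 on either array.

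Hox proteins bind DNA with cofactors of the Pbx, Meis and Pknox families. Of 11 listed genes, 10 were measured and tested, with 1 higher and 1 lower and a list median of -0.03. For this and the next lists, 5.99% of all tested genes were called higher and 5.45% lower. A gene that passed the filter through the signal of 1 group alone had to differ, so no share is read as support. Meis2, a Meis family cofactor of proximal limb cells, read 7.6 and 34.5 in BMDC and 899.9 and 379.4 in FDC (4.20 ± 0.63; limma adjusted p = 0.0187), with 317.7 in FL-Y. Gmnn, a replication inhibitor that also binds Hox proteins, read 2885.4 and 3858.7 against 312.1 and 542.7. Its difference was -2.97 ± 0.45 (limma adjusted p = 0.0194). In FL-Y Gmnn read 3529.0, above the FDC arrays by 3.44 and 2.67, and in activated FL-Y 4113.7. Meis2 lost its call without BMDC array 1 (limma adjusted p = 0.0585), and Gmnn without BMDC array 1 or 2 or FDC array 1 (0.0573 to 0.0818).

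Of 36 listed chromatin and retinoic acid regulators of Hox loci, 31 were tested, with 2 higher, 1 lower and a median of -0.12, shares near those of all tested genes. Cyp26b1, which breaks down the retinoic acid that patterns Hox expression, read 4.0 and 57.6 in BMDC and 1016.6 and 1572.6 in FDC (5.14 ± 0.73; limma adjusted p = 0.0161). In FL-Y it read 91.2, lower than on either FDC array by -3.29 and -3.91. With a floor in place of the offset Cyp26b1 lost its call (limma adjusted p = 0.0758). Rarb, a retinoic acid receptor, read 59.3 and 98.2 against 722.7 and 614.3 (2.90 ± 0.42; limma adjusted p = 0.0166), and lost its call without BMDC array 1 or FDC array 1 (0.0712 and 0.0548). Jarid2, a Polycomb subunit, read 2306.5 and 1925.7 against 515.4 and 504.4 (-2.02 ± 0.37; limma adjusted p = 0.0342), and its call was lost whichever 1 of the 4 arrays was left out.

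Of 64 listed patterning factors outside the clusters, 60 were measured and 23 tested, with 12 higher and 2 lower in FDC and a median of 0.30. Genes dim in BMDC could pass the filter only through their FDC signal, so 12 of 23 is not read as support. Prrx1, a limb and craniofacial mesenchyme factor that is also among the fibroblast markers, read 50.6 and 23.8 against 8380.4 and 8873.9 (7.44 ± 0.43; limma adjusted p = 0.00264). Shox2, of the proximal limb, read 15.8 and 8.7 against 1897.7 and 1244.5 (5.89 ± 0.43; limma adjusted p = 0.00323). Prrx2, a mesenchyme factor related to Prrx1, was higher by 5.0 (limma adjusted p = 0.0213), and Tbx15, a skeletal and skin patterning factor, by 4.94 (0.0117). Lhx8, a factor of tooth and palate mesenchyme, was higher by 4.32 (limma adjusted p = 0.0427), and Hlx, a factor of blood cells and gut mesenchyme, was lower at -4.36 (0.00636). Without BMDC array 1, Prrx2 (limma adjusted p = 0.0674) and Lhx8 (0.0769) lost their calls, and Lhx8 did so without BMDC array 2 (0.132) and was not tested without FDC array 1. Tlx1, which the spleen needs to form, was not tested. It read 19.8 and 89.2 on the FDC arrays, with the BMDC arrays between them at 37.5 and 33.1. Of 30 listed genes at the edges or on the other strand of the clusters, 19 were measured, 16 tested and 1 called: Skap2, an adaptor of blood cells beside the A cluster, was lower at -1.77 ± 0.37 (limma adjusted p = 0.0477), whose call was lost whichever 1 of the 4 arrays was left out.

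**Figure D3:**
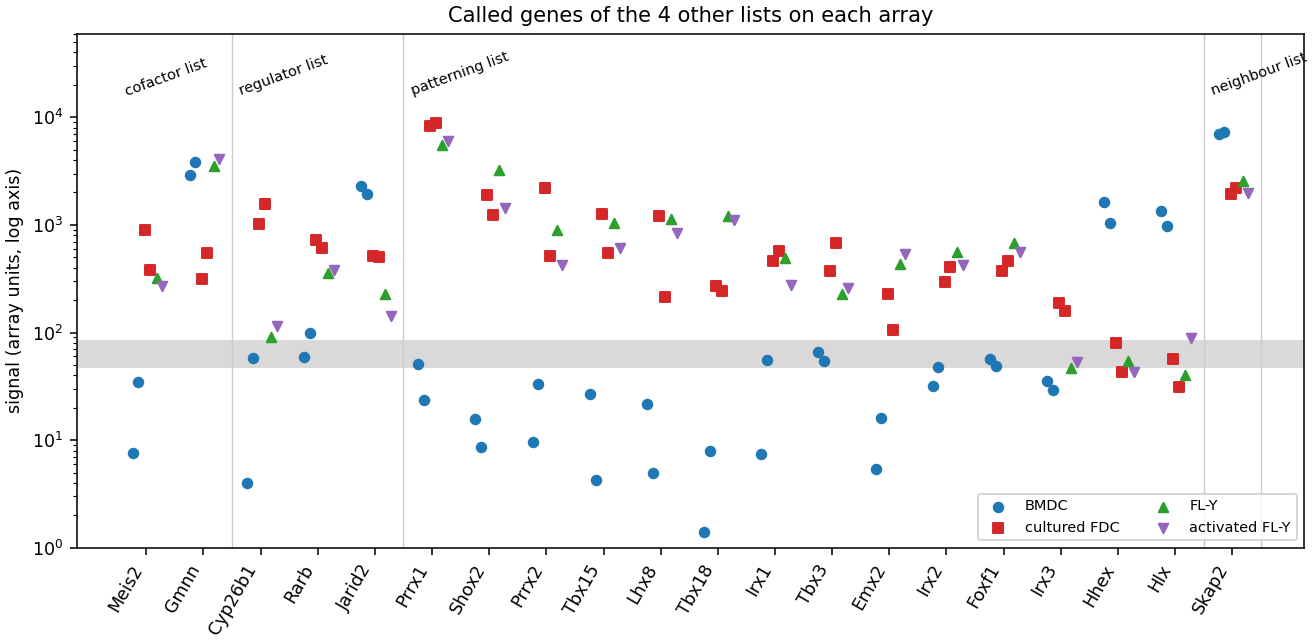
Signal on each of the 6 arrays (log axis) of the called genes of the cofactor, regulator, patterning and neighbour lists; the shaded band spans the array medians. Prrx1 and Shox2 are high in FDC and FL-Y and low in BMDC, and Hlx and Hhex are high in BMDC.

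Markers of other cells also differed between the groups. Of 7 dendritic cell markers 5 were lower in FDC, as were 7 of 7 macrophage and granulocyte markers, and of 7 progenitor markers 1 was lower. Mast cell markers were higher for 3 of 5, with summed signals of 4728 and 721 in BMDC and 5952 and 12230 in FDC. Of the markers tested, 2 of 4 endothelial and 1 of 3 epithelial ones were lower in FDC, and 1 of 3 T and B cell ones was higher. The part of fibroblast, mast cell or progenitor RNA in the Hox values was not tested.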

How the data were processed

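Mouse total RNA was hybridised to 1 array per sample. The deposited table holds 1 linear intensity per probe set and array, which the authors had scaled to a common trimmed mean, as its values show. The program behind them was not given in the sources used here. Gene names came from the platform annotation (34945 probe sets with 1 gene, 932 with several, which were left out), and 3 probe sets shared by a pair of Hox genes were left out. Promoter windows came from RefSeq.

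The scale used was log2(signal + 14.2), with an offset equal to the arrays' median 20th percentile. A probe set was tested when its mean lay above the 40th percentile (signal 46.4). The FDC and BMDC arrays entered limma 3.58.1 (R 4.3.3, two-sided; residual df 2, prior df 3.35), and Benjamini-Hochberg adjustment ran over 27022 probe sets. An exact permutation test of 2 against 2 arrays cannot go below 0.333. Precision is limited by the number of arrays. The fit was run on simulated data, where it made no calls at the effect sizes first simulated. The sizes were then enlarged, so this was no check of power for small changes.

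Named Hox genes were those called, the brightest of each cluster by group, and the 5 largest FL-Y and activation differences in each direction. Of other lists, up to 6 called genes were named by size. Alternatives changed the offset, scaling, filter, probe set, fit, size threshold or 1 array. The members and lists were chosen with earlier results of these data known. The promoter windows, motifs and the rule counting any probe set were chosen after values were seen, and 2 other motifs (TAATTA and TGACAG) were searched and dropped after their counts were seen. Genes outside these rules were named after their values were seen.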

Additional observations from a re-analysis of the deposited data

How the results depend on the processing

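The count of Hox genes called higher in FDC (6) was 3 without a filter, 3 with the filter at the 60th percentile, 4 with a floor in place of the offset, 4 with a trended, robust spread and 2 to 6 when 1 array was left out. With the array number as a replicate block it was 8, but the labels do not pair the arrays (BMDC array 1 has no number there), and the neighbour count became 0. The count called lower stayed at 0 in each setting run. The cofactor count (2) was 1 with the floor, 1 at the 60th percentile and 0 to 2 with 1 array left out. The regulator count (3) was 1 with the floor and 1 to 2 with 1 array left out, and the patterning count (14) was 9 without a filter and 6 to 9 with 1 array left out. The neighbour count (1) was 0 with the floor, quantile normalization, no filter and each array left out. Hox genes at least 2 below both FDC arrays in FL-Y (2) numbered 0 under the larger offset, quantile normalization and a common median. Those above (0) numbered 3 at a difference of 1, where 8.743% of all genes did so. They numbered 1 without FDC array 1 and 0 without FDC array 2 (3.298% and 4.785% of all genes). For activation, the upward count (0) was 1 without a filter (0.2364% of all genes). The downward count (0) was 1 with the floor, 2 without a filter and 2 at a difference of 1 (3.918%, 0.9069% and 7.042% of all genes). Over all probe sets, 2413 were called, against 1443 with the floor, 1433 without a filter, 1333 without BMDC array 1 and 1312 without BMDC array 2, and 3119 with the larger offset and 3083 with a trended, robust spread. No call above reversed its direction, but untested activation differences did. Under a common median the tally of 18 lower and 14 higher became 12 lower and 21 higher. By the brightest probe set, genes that changed sign there included Hoxa7 (-0.31 to 0.02), Hoxa9 (-0.10 to 0.25), Hoxc8 (-0.19 to 0.14), Hoxc13 (-0.23 to 0.09) and Hoxd8 (-0.21 to 0.02). With 2 arrays a group, dim genes have little support.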

Other observations

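Outside the clusters, 28 patterning genes passed the filter. FL-Y stood at least 2 log2 units above both FDC arrays for 4 of them (Tbx18, Irx5, Tcf21 and Foxc2), without a test. It stood at least as far below both for 1 (Pitx1). Of all genes passing, 1.95% and 4.84% did so. A gene could pass this filter through its FL-Y signal alone, so 4 of 28 is not read as support. Foxc2, a factor of lymphatic and kidney mesenchyme, read 10.9 and 92.3 on the FDC arrays, 1026.3 in FL-Y and 987.2 in activated FL-Y. Irx5, an Iroquois homeobox factor, read 96.4 and 48.6 on the FDC arrays, 720.5 in FL-Y and 641.9 in activated FL-Y. Pitx1, a hindlimb factor, read 127.3 and 178.7 on the FDC arrays, 11.6 in FL-Y and 9.3 in activated FL-Y. Hoxa11os, on the other strand of Hoxa11, read 19.2 and 167.2 on the FDC arrays, 316.2 in FL-Y and 215.9 in activated FL-Y. These genes were chosen after their values were seen.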
